A study of Rattus norvegicus with 4 samples.

Results

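INS-1 832/3 cells carry 3 insulin genes, the rat genes Ins1 and Ins2 and a human INS transgene, and the results below follow their transcripts from 2D monolayer to 3D-bioprinted culture. The members were the rows whose gene symbol was exactly Ins1, Ins2 or INS, which gave 3 genes of 23360 and 7 transcripts of 31201. One transcript belonged to each rat gene and 5 to the human gene. Messenger RNA was sequenced from this clonal rat insulinoma line in 4 samples, 2 cultures seeded as a standard 2D monolayer and 2 cultures bioprinted in GelXA LAMININK 411, a gelatin methacrylate hydrogel with laminin-411. All cultures were at passage 3, were kept in the same RPMI-1640 medium with serum and Geneticin, an antibiotic that selects for the resistance the cells carry, and were harvested after 5 days. Being 1 line of tumor origin that also makes human insulin, the cells are a model of rat beta cells with an added gene. Values are TPM, an abundance scale for transcripts, which are corrected for transcript length and sum to 1000000 in each sample, so that levels of different genes can be compared on this scale.

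Insulin is made in beta cells as preproinsulin, whose signal peptide is removed in the endoplasmic reticulum and whose connecting peptide is cut out in the secretory granule by prohormone convertases. Rats and mice have a pair of insulin genes. Ins2 is the ancestral gene with the intron layout shared by other mammals, and Ins1 is a retrotransposed copy that kept only the first intron and part of the ancestral promoter. Both rat genes are controlled by short promoters with E boxes, bound by NEUROD1 with E proteins, and A boxes, bound by PDX1. The human gene in INS-1 832/3 cells was introduced by stable transfection of a construct with a viral (CMV) promoter, so neither rat promoter drives it.

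The 250 bases upstream of the annotated start of each rat gene are shown because the members differ in this region and because the transgene lacks it. They are RefSeq sequences of the GRCr8 build, a later build than the one used for the deposited values. The Ins1 window is chr1:261185869-261186118 on the plus strand and the Ins2 window is chr1:207273806-207274055 on the minus strand. Both lie outside the transcribed gene in the annotation, and capitals mark matches on either strand to the cores of the E box, the A box and the cAMP response element and to the TATA box.
Ins1: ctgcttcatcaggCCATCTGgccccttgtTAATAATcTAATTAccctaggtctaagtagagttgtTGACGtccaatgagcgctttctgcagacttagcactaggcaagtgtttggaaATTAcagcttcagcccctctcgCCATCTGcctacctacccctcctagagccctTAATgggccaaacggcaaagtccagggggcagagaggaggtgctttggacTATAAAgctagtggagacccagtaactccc
Ins2: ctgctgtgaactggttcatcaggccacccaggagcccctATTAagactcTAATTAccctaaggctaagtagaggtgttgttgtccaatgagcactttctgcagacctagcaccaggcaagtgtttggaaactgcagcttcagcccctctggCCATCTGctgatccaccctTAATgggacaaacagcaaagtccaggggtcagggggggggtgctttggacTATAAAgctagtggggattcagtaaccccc
Aligned end to end, the windows were identical at 204 of 238 paired bases (85.7%). The E box core CCATCTG was found 2 times upstream of Ins1 and 1 time upstream of Ins2, beside 4.11% of 33469 rat promoter windows of the same length with at least 1 match. The A box core TAAT was found 6 times in Ins1 and 4 times in Ins2, some matches overlapping each other (57.0% of all windows have a match). The core TGACG of the cAMP response element was found 1 time in Ins1 and was not among the letters of the Ins2 window (18.2% of all windows). The TATA box TATAAA was found 1 time in each, starting 30 bases before the start (12.9% of all windows). These are matches of letters, and whether a factor binds there was not measured.

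Ins1 was the most abundant gene in all 4 samples. It had 114003 and 126460 TPM in the 2D monolayer samples and 127527 and 137822 TPM in the 3D samples, so the groups did not overlap, but the higher 2D sample lay close below the lower 3D sample. Ins2 had 13237 and 13340 TPM in 2D and 8957 and 9326 TPM in 3D, with both 3D samples below both 2D samples. INS, summed over its transcripts, had 8671 and 9434 TPM in 2D and 8348 and 8767 TPM in 3D, with overlap. The order Ins1, Ins2, INS held in every sample. In 2D, Ins2 lay well above INS, at 1.53 and 1.41 times its level. In 3D the gap narrowed to 1.07 and 1.06 times, and the lower Ins2 sample (8957 TPM) was still above the higher INS sample (8767 TPM). Ins2 ranked 4 and 3 among all genes in the 2D samples and 9 and 8 in the 3D samples, while INS ranked 10 and 9 in 2D and 10 in both 3D samples. Below Ins1, the genes with the highest means over the 4 samples other than Ins2 and INS were those of the mitochondrial genome, Mt-atp8, Mt-co3, Mt-atp6 and Mt-co2, and Iapp, which encodes the co-secreted peptide amylin, with means from 11305 to 34765 TPM.

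**Figure D1:**
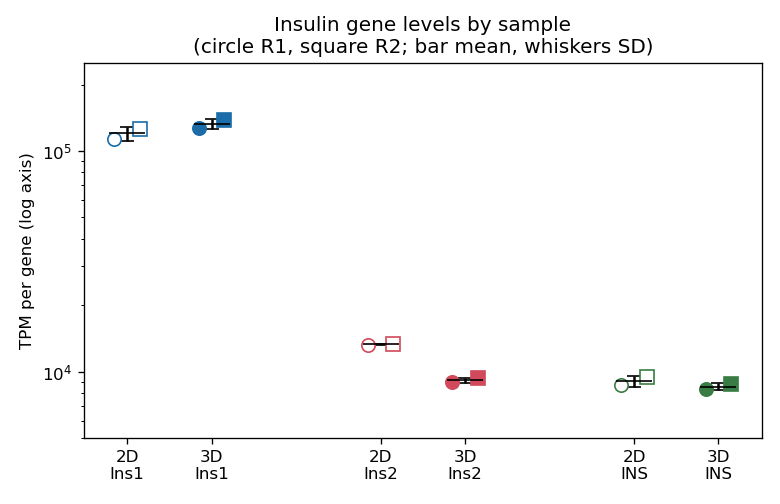
TPM per gene on a log axis for Ins1, Ins2 and INS in 2D monolayer (open symbols) and 3D-bioprinted culture (filled symbols), with R1 as circles, R2 as squares, the group mean as a bar and the SD as whiskers. The 3D samples of Ins2 (8957 and 9326 TPM) lie below its 2D samples (13237 and 13340 TPM) with a wide gap, those of Ins1 lie above by a narrow one (127527 against 126460 TPM), and those of INS overlap.

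Ins2, the ancestral rat gene, fell in 3D culture. Its mean was 13289 ± 72.2 TPM (SD, n = 2) in 2D and 9141 ± 261 TPM (SD, n = 2) in 3D, 0.688 times the 2D level. In the fit of log2(TPM + 1) over 11960 genes, the 3D to 2D difference was -0.58 on the log2 scale, with a 95% confidence interval of -0.82 to -0.35 (limma, adjusted p = 0.0095). Of all genes tested, 38.0% had an adjusted p below 0.05, 19.5% being lower and 18.5% higher in 3D, so passing this threshold is common in the comparison. These shares moved with the cultures and the scaling: in place of 4541 genes, 136 were called without 3D replicate 1 and 1037 without 3D replicate 2, and with the insulin genes left out of the total 2511 genes were higher and 1700 lower in place of 2213 and 2328. Groups that did not overlap were found in 74.2% of genes. In size the fall lay further out, as 2.91% of genes had a lower log2 fold change than Ins2. Among the 123 genes with a mean of at least 1000 TPM, Ins2 had the lowest value, beside a median of -0.23. This ranking among abundant genes was chosen after the value had been seen and is a description. Ins2 was not called without 3D replicate 1 or without 3D replicate 2, with log2 fold changes of -0.56 and -0.60. Far fewer genes of any kind were called in these fits, so they do not show which cultures the call rested on. Without a filter on low values the adjusted p of Ins2 was 0.0714 in limma. In bulk RNA, fewer cells making a transcript and less transcript per cell cannot be told apart. The paper reports that insulin gene expression did not differ significantly between the cultures, and its text does not name the gene meant. It used DESeq2, a test that was not repeated here.

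**Figure D2:**
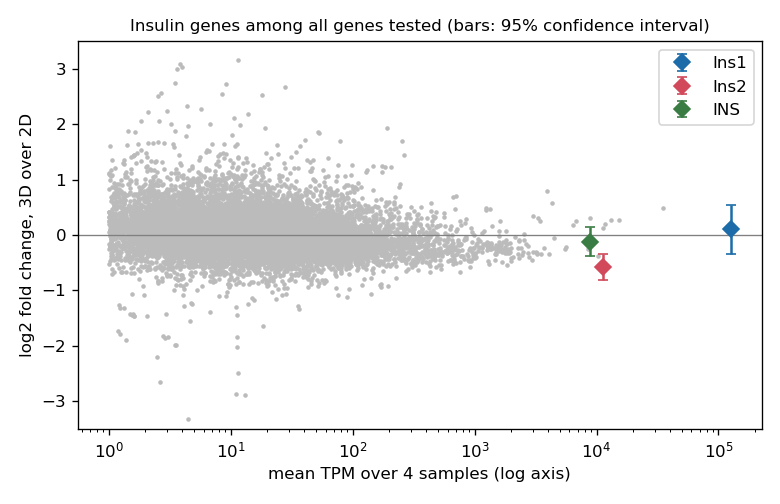
Log2 fold change of 3D over 2D against mean TPM (log axis) for the 11960 genes tested (grey), with the 3 insulin genes as diamonds and their 95% confidence intervals as bars. Ins2 (-0.58) lies below the other genes of high abundance, while the intervals of Ins1 and INS include 0.

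No difference was detected for Ins1. Its mean was 120231 ± 8808 TPM (SD, n = 2) in 2D and 132675 ± 7280 TPM (SD, n = 2) in 3D, and its 3D to 2D difference on the log2 scale was 0.10, with a 95% confidence interval from -0.35 to 0.55 (limma, adjusted p = 0.680). Without 2D replicate 1 its sign turned, to -0.015. The interval holds values on both sides of 0. Its width depended on how the fit modeled the variance. It ran from -0.16 to 0.36 without an intensity trend and from -2.22 to 2.35 without a filter on low values.

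For INS the mean was 9053 ± 539 TPM (SD, n = 2) in 2D and 8557 ± 296 TPM (SD, n = 2) in 3D. The difference was -0.12 on the log2 scale, with a 95% confidence interval of -0.38 to 0.14 (limma, adjusted p = 0.374). The interval of INS overlaps that of Ins2 by a small stretch, from -0.38 to -0.35, and that of Ins1 widely.

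Almost all of the human signal came from 1 transcript. ENST00000381330.4 had 8542 and 9286 TPM in 2D and 8231 and 8634 TPM in 3D, between 98.4% and 98.6% of INS in every sample. ENST00000250971.7 had 119 and 132 TPM in 2D and 101 and 124 TPM in 3D. ENST00000421783.1 was lower still, at 10.1 and 14.2 TPM in 2D and 14.6 and 8.73 TPM in 3D. The groups overlapped for all 3 of these transcripts. The other two were at the edge of detection: ENST00000397262.5 was listed at 0 except for 1.30 TPM in 3D replicate 1, and ENST00000512523.1 had 0.842 and 0.874 TPM in 2D and was listed at 0 in 3D. The split of INS over its transcripts was thus nearly the same in both cultures, with a mean share of ENST00000381330.4 of 98.5% ± 0.048 (SD, n = 2) in 2D and 98.5% ± 0.079 (SD, n = 2) in 3D.

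A fit over 15020 transcripts, not summed per gene, covered 5 of the 7 insulin transcripts. It called 1 of them, the Ins2 transcript ENSRNOT00000027656.3, as lower (-0.60 on the log2 scale, limma, adjusted p = 0.0238), where 12.7% of all transcripts tested were called lower, 10.8% higher and 23.5% in either direction. The Ins1 transcript ENSRNOT00000016052.5 was at 0.080 (limma, adjusted p = 0.791). The tested INS transcripts had log2 fold changes from -0.23 to -0.13 with adjusted p from 0.243 to 0.762 in limma. The Ins2 transcript was no longer called without 2D replicate 2 (adjusted p = 0.0825 in limma), 3D replicate 1 (0.180) or 3D replicate 2 (0.154), nor without a filter on low values (0.210), where ENST00000512523.1 was called lower instead (0.0347).

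Together the 3 genes took 13.6% and 14.9% of all TPM in the 2D samples and 14.5% and 15.6% in the 3D samples. The means were 14.3% ± 0.942 (SD, n = 2) and 15.0% ± 0.784 (SD, n = 2), and the groups overlapped (p = 0.667, exact two-sided permutation test over the 4 samples, whose smallest possible p is 0.333). In 3D culture a larger part of TPM went to the transcripts of the mitochondrial genome, 13.0% and 12.3% against 10.1% and 9.35% in 2D. With these transcripts left out of the total, insulin took 15.1% and 16.5% in 2D and 16.6% and 17.8% in 3D. The difference between the means then was 1.42 percentage points in place of 0.780, and the groups no longer overlapped (exact permutation p = 0.333). The part of the mitochondrial transcripts in other differences was not tested. In absolute terms the mean of Ins1 was 12443 TPM higher in 3D and that of Ins2 fell by 4147 TPM.

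The mix within the insulin transcripts does not depend on the scaling between samples, as it is taken within each sample. Ins2 made up 9.74% and 8.94% of insulin TPM in 2D and 6.18% and 5.98% in 3D, with no overlap. INS made up 6.38% and 6.32% in 2D and 5.76% and 5.62% in 3D, also with no overlap. Ins1 filled the remainder, with 83.9% and 84.7% in 2D and 88.1% and 88.4% in 3D. Seen as ratios, Ins1 was at 8.61 and 9.48 times the level of Ins2 in 2D and at 14.2 and 14.8 times in 3D, a difference of -0.68 in the log2 ratio of Ins2 to Ins1. Ins1 was at 13.1 and 13.4 times the level of INS in 2D and at 15.3 and 15.7 times in 3D. Relative to Ins1, then, both other genes were lower in 3D, Ins2 more than INS. The exact permutation p for the share of Ins2, the share of INS and the log2 ratio of Ins2 to Ins1 was 0.333 each, the smallest that 2 cultures against 2 allow, so none of these 3 differences can pass a threshold of 0.05. Leaving out any 1 culture, the log2 ratio differed by -0.75 to -0.61, and the share of Ins2 by -3.66 to -2.86 percentage points.

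**Figure D3:**
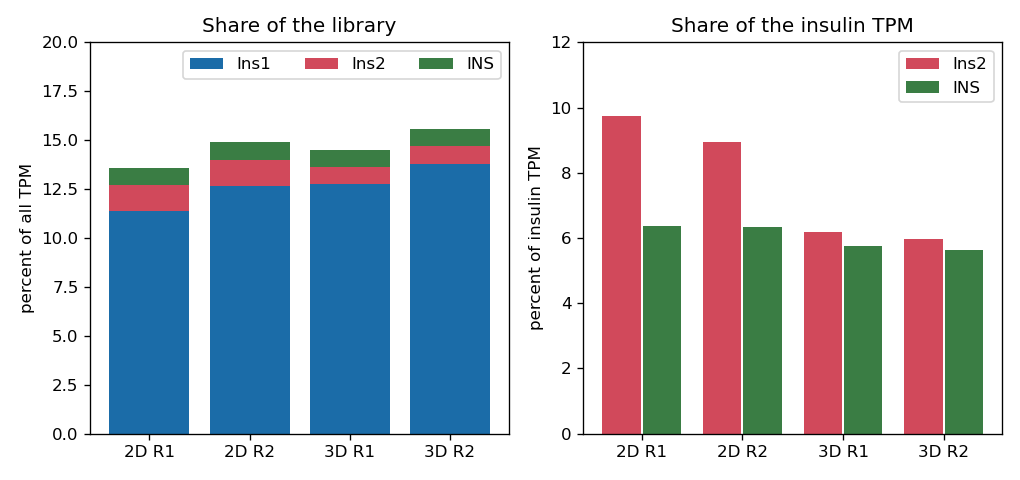
Left, stacked bars of the percent of all TPM taken by Ins1, Ins2 and INS in each sample, and right, the percent of insulin TPM from Ins2 and INS in each sample. The stacks reach 13.6% to 15.6% with overlap between cultures, while the Ins2 bars are shorter in both 3D samples (6.18% and 5.98%) than in both 2D samples (9.74% and 8.94%).

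The 3 genes are similar in sequence, and reads that fit more than 1 of them are divided by the quantification. Over the first 50 bases after the annotated start, which the genes transcribe, Ins1 and Ins2 were identical at 45 positions without gaps and the longest identical run was 22 bases, against reads of 75 bases. How many reads of the whole transcripts could be shared was not tested.

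Over the 4 samples, the pattern of Ins1 on the log2 scale was most like those of Klc1 (Pearson r = 0.998), Prph (0.994) and Tm4sf4 (0.993) among 1198 other genes with a mean of at least 100 TPM, of which 14 had r above 0.9. For Ins2, r was above 0.9 for 598 of the 1198 genes, the highest being Glrx3, Dynlt1 and Csnk2b (each 1.00 when rounded). For INS there were 95, led by Cst3 (0.996), Atp6v0b (0.995) and Chmp2a (0.995). With 4 points that share the same libraries, such values only describe how alike the patterns are over these samples. Among the members themselves, r was -0.40 for Ins1 with Ins2, 0.73 for Ins2 with INS and 0.32 for Ins1 with INS.

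The genes that act on insulin production were grouped by role. Of 26 transcription factors and coactivators of insulin promoters, 24 were matched and 22 tested, of which 7 rose, none fell and 15 were not called, with a median log2 fold change of 0.15 beside -0.0031 over all genes. Of all genes tested, 38.0% were called, 18.5% as higher, so the number called in this list was no larger a share than among all genes, although all of its calls were higher. Pax6, which binds an element of the insulin promoter, had 171 and 173 TPM in 2D and 278 and 257 TPM in 3D (log2 fold change 0.59, adjusted p = 0.0054 in limma). Ldb1, a partner of ISL1, rose from 132 ± 0.117 to 177 ± 5.98 TPM (SD, n = 2 each), and Ep300, the coactivator p300, from 4.37 ± 1.08 to 9.04 ± 0.992 TPM (SD, n = 2 each). Without a filter on low values 3 genes of this list were called.

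Most of the listed factors that repress or block insulin promoters moved in the same direction, and the list holds several related Id genes. Of 9 tested, 6 rose, none fell and 3 were not called, with a median log2 fold change of 0.57. Of all genes 18.5% rose and 19.5% fell. Id1 and Id3, which sequester the E proteins needed at E boxes, had log2 fold changes of 1.22 and 1.01 (adjusted p = 0.0027 and 0.0035 in limma). Id1 had 22.1 and 19.2 TPM in 2D and 50.5 and 50.9 TPM in 3D. Crem, whose short products compete with CREB at the cAMP response element, had 46.4 and 41.9 TPM in 2D and 82.8 and 80.0 TPM in 3D (log2 fold change 0.83, adjusted p = 0.0035 in limma). For Myc the value was 0.57 (limma, adjusted p = 0.0081). For each of these 4 genes the 3D samples lay above the 2D samples, in a comparison where the groups did not overlap for 74.2% of all genes.

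Among 9 RNA-binding proteins known from insulin mRNA or related to such proteins, 4 rose and none fell, with a median log2 fold change of 0.21. The share called in either direction was near the 38.0% of all genes. Tia1, Tial1 and Ptbp2 had log2 fold changes of 0.74, 0.33 and 0.48. Ptbp1, which binds and stabilizes insulin mRNA, was at 322 and 261 TPM in 2D and 347 and 343 TPM in 3D (adjusted p = 0.111 in limma), and Pabpc1, the poly(A)-binding protein, at 549 and 515 TPM in 2D and 639 and 587 TPM in 3D (adjusted p = 0.119 in limma).

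Genes for the entry of preproinsulin into the endoplasmic reticulum and its folding went both ways. Of 25 tested, 3 rose, 9 fell and 13 were not called, with a median log2 fold change of -0.16. Over all genes 18.5% rose, 19.5% fell and 38.0% were called. The share called here in either direction was not far from that of all genes, but more of the calls were lower than higher. Hspa5, the chaperone BiP, fell from 1159 ± 84.9 to 905 ± 66.5 TPM (SD, n = 2 each; log2 fold change -0.40, adjusted p = 0.0125 in limma). Sec61g, a subunit of the translocon, fell from 1083 ± 22.7 to 863 ± 39.3 TPM (SD, n = 2 each). Ero1a, an oxidase that supports disulfide formation, rose from 20.8 ± 1.98 to 29.6 ± 0.672 TPM (SD, n = 2 each), and Hsp90b1 was at -0.24 on the log2 scale (limma, adjusted p = 0.0712).

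Of 12 tested genes for prohormone conversion and the secretory granule, 8 rose and none fell, with a median log2 fold change of 0.32, where 18.5% of all genes rose and 19.5% fell. Pcsk2, a convertase of proinsulin, had 353 and 344 TPM in 2D and 542 and 531 TPM in 3D (log2 fold change 0.58, adjusted p = 0.0041 in limma). Pcsk1, also a convertase, lay the other way but was not called (log2 fold change -0.36, adjusted p = 0.088 in limma). It had 130 and 114.5 TPM in 2D and 84.5 and 113.9 TPM in 3D. Chgb, a granin, had 2487 and 3185 TPM in 2D and 4625 and 5469 TPM in 3D (log2 fold change 0.79, adjusted p = 0.0168 in limma). Ptprn2 and Vgf rose with log2 fold changes of 0.49 and 0.56. Chga, the most abundant gene of this list, was at -0.11 on the log2 scale (limma, adjusted p = 0.511). Without a filter on low values 4 genes of this list were called. Of the other insulin family genes, Igf2 alone was tested, with 179 and 183 TPM in 2D and 207 and 192 TPM in 3D (adjusted p = 0.328 in limma).

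**Figure D4:**
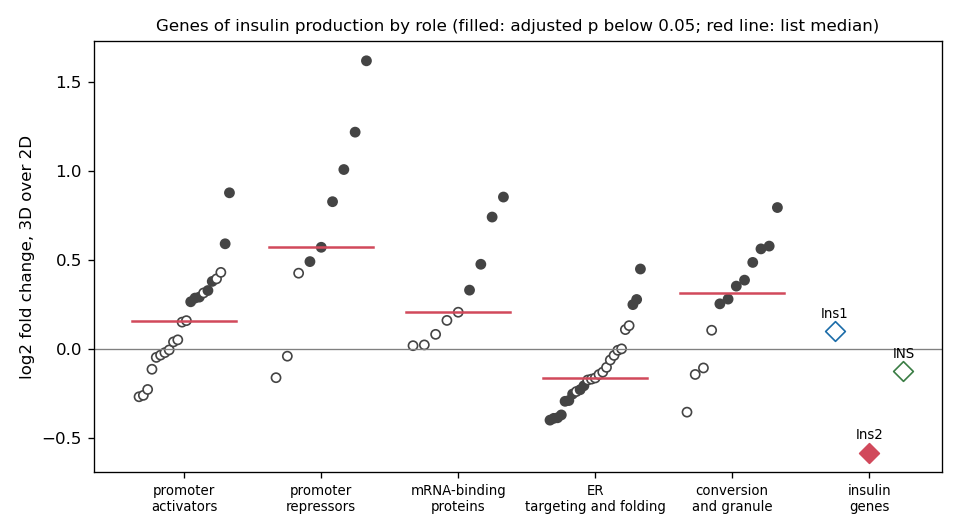
Log2 fold change of 3D over 2D for each tested gene of the 5 roles, with filled points for an adjusted p below 0.05 and the list median as a red line, and the 3 insulin genes as diamonds. Ins2 (-0.58) lies below every gene of these lists, and the median runs from -0.16 for targeting and folding to 0.57 for repressors.

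The tested markers of beta cells were present in every sample. Of 8 markers 7 were matched, of which 6 were tested. Slc2a2, the glucose transporter GLUT2, rose, and none fell. Pdx1, also among the promoter activators, had 143 and 152 TPM in 2D and 129 and 131 TPM in 3D. This lower level was not called (log2 fold change -0.23, adjusted p = 0.052 in limma). Mafa had 125 to 159 TPM and Slc2a2 454 to 654 TPM over the 4 samples. Ucn3, a marker of mature beta cells, was listed at 0 in 2D and at 0.980 and 0.281 TPM in 3D. Among hormones of other islet cells only Gcg, which encodes glucagon, passed the filter. It had 41.9 and 73.8 TPM in 2D and 124 and 155 TPM in 3D (1.26 on the log2 scale, limma, adjusted p = 0.0217), while Sst, Ppy, Pyy and Ghrl were at or below 0.508 TPM in every sample. Summed over their lists, the 5 hormones took 42.3 and 74.7 TPM in 2D and 124 and 155 TPM in 3D, acinar markers 5.79 to 7.49 TPM over all samples, ductal markers 16.1 and 18.8 TPM in 2D and up to 21.9 TPM in 3D, endothelial markers 0.973 and 1.01 against 1.27 and 1.49 TPM, and leukocyte markers 0.799 and 0.562 against 0.875 and 1.47 TPM. The ductal sum came almost wholly from Krt7 (15.3 to 21.1 TPM), while Krt19 and Sox9 stayed at or below 0.743 TPM. The acinar sum came almost wholly from Ctrb1 (5.75 to 7.45 TPM). Fibroblast markers stayed at or below 0.025 TPM. The acinar genes Cpa1, Prss1, Cela1 and Pnlip, and Cdh5 and Ptprc, which define endothelial cells and leukocytes, were listed at 0 in all samples. The part of the Gcg transcripts in the lower level of Ins2 was not tested.

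The fall of Ins2 held its direction under every other setting run. Its log2 fold change ran from -0.63 to -0.53 and its adjusted p from 0.0026 to 0.107 in limma. INS stayed between -0.22 and -0.029 and was not called in any setting, and Ins1 stayed between -0.015 and 0.21 and was not called either.

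**Figure D5:**
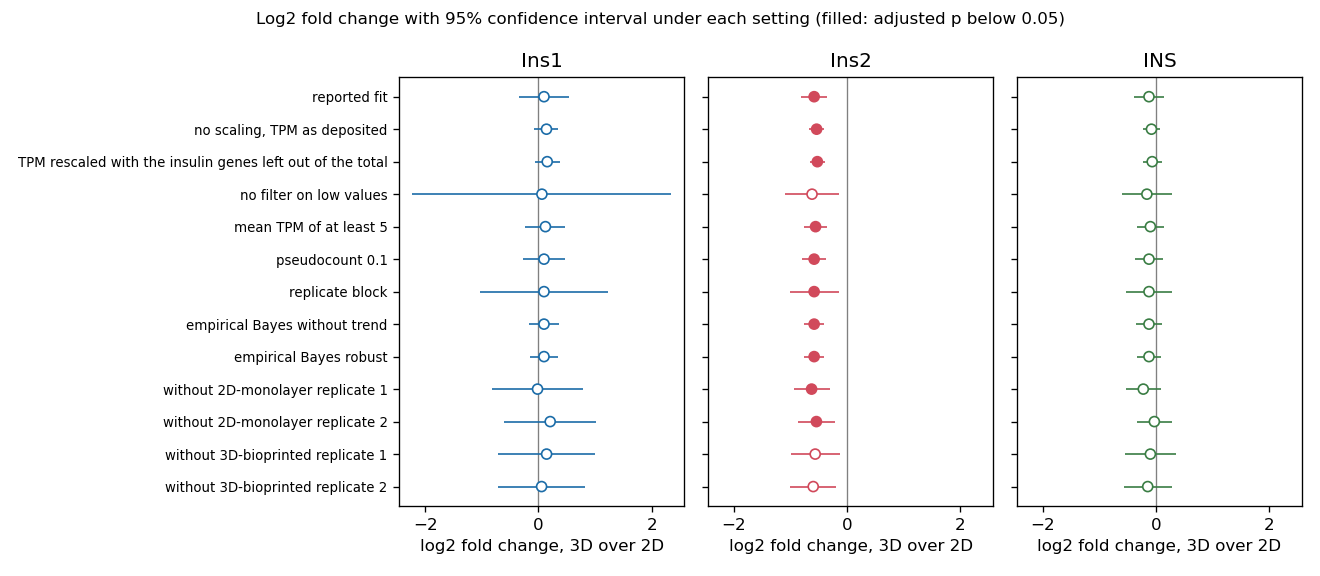
Log2 fold change of 3D over 2D with its 95% confidence interval for Ins1, Ins2 and INS under the reported fit and each other setting, with filled points for an adjusted p below 0.05. The Ins2 interval lies below 0 in each setting, and 3 of its 12 other settings have open points, while the Ins1 and INS intervals include 0 throughout.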

How the data were processed

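RNA of 4 samples of INS-1 832/3 cells was sequenced as single-end reads of 75 bases from stranded poly(A) libraries, 2 cultures per group by the sample labels. The labels call the replicates biological. The authors state that transcripts were quantified with Salmon 1.2 against rn4 with the human insulin gene added, after quality control with FastQC 0.11.8. They deposited TPM with decimal commas. The transcript identifiers carry version numbers, and the build they come from could not be settled. Each sample summed to 1000000 with no negative value, and 19355 to 19959 transcripts were above 0. The deposited files are entered as another unit in the unit check, which reads decimal commas as text. TPM keep no depth, so no counting interval was set. Precision here rests on the spread between 2 cultures per group and on the variance model of the fit. Between any 2 samples, 0 transcripts above 0 had equal values.

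TPM were summed per symbol. Genes with a mean of at least 1 TPM received TMM factors without weights (30% trimming on M, 5% on A, at both ends), which came to 0.960 to 1.02, and limma 3.58.1 in R 4.3.3 was run on log2(TPM + 1) (empirical Bayes with an intensity trend, Benjamini-Hochberg adjustment over all genes tested, threshold 0.05). Fold changes on this scale understate those of low genes. The steps were tried on simulated TPM in which only a small part of the genes changed. That run does not cover differences as widespread as those called here. TPM printed per sample are as deposited. Shares were compared with an exact permutation test. Promoter windows were aligned with Biopython 1.88, and the GRCr8 table served for older symbols and these windows only. The DESeq2 test of the methods needs counts and was not repeated.

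The members and gene lists were chosen with earlier results of these data known. Named list genes were the 3 with the smallest p and the 2 with the highest mean TPM, and named alike genes the 3 with the highest r for each member. Pcsk1 was named in addition, beside Pcsk2, after its value had been seen. Alternatives were the scaling, the filter, the pseudocount, the replicate block, the empirical Bayes options, the total used for shares and each culture left out.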

Additional observations from a re-analysis of the deposited data

How the results depend on the processing

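TPM hold no depth, so counting error could not be separated from the spread between 2 cultures per group. With each culture left out in turn, Ins2 had log2 fold changes from -0.63 to -0.54, Ins1 from -0.015 (without 2D replicate 1) to 0.21, INS from -0.22 to -0.029 and ENST00000421783.1 from -0.47 to 0.22, its sign being positive without 2D replicate 2 (0.13) and without 3D replicate 2 (0.22). The number of genes called then ran from 136 to 4515 in place of 4541, with 136 without 3D replicate 1 and 1037 without 3D replicate 2, and that of insulin transcripts called from 0 to 1. A lone culture is assumed there to vary like the other group. Without a filter on low values, Ins2 had a log2 fold change of -0.62 and an adjusted p of 0.0714, and 3 promoter activators, 4 conversion and granule genes and 1 insulin family gene were called in place of 7, 8 and 0, and the 1 insulin transcript called was ENST00000512523.1. The cause was not tested. Of all calls, 2213 were higher and 2328 lower in 3D, but 2511 and 1700 on TPM rescaled with the insulin genes left out of the total. Ins2, had -0.53 there.

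Same-numbered cultures did not deviate together (r = -0.005 across 11960 genes), so the numbers were not taken as pairs. A fit with the replicate block called 4814 genes, kept Ins2 below the threshold (adjusted p = 0.0404) and called 0 insulin transcripts, the Ins2 transcript having an adjusted p of 0.0893 and an unadjusted p of 0.0288. The block for the share of all TPM, added after the data were seen, gave the same 0.780 percentage points. This share differed by 0.114 to 1.45 percentage points with each culture left out, and the share of INS within insulin by -0.728 to -0.587.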
